A study of Sus scrofa with 10 samples.

Results

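Liver from pigs in liver failure after hepatectomy, taken without any support device on day 2 (NoBAL, 2 libraries), was compared with normal pig liver taken on day 0 (Control, 3 libraries). The genes described are those that reached 1 FPKM (sequenced fragments per kilobase of a gene's length, relative to the library's total) in at least 2 of the 10 libraries of the study, which left 12180 of the 31905 genes in the deposited table. All libraries carry the genotype label WT and the cell type label hepatocyte, but the source is given as liver and RNA was extracted from pig livers, so the values are those of tissue. The labels give no strain, sex, age or extent of resection, and they do not say whether the libraries of a group came from separate animals. P-values therefore measure only the spread between these libraries, which may be technical. The other 5 libraries were from pigs treated with an empty device (EmptyBAL, day 3, 2 libraries) or with a device that held human induced hepatocytes (days 4 and 8), and entered the test only to estimate that spread. Failure and the step from day 0 to day 2 changed together, so the effects of failure, of surgery and of time cannot be told apart.

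Hepatocytes take up sugars, bile acids, amino acids and organic anions through carriers of the solute carrier families in the membrane that faces the blood, and export bile through the opposite, canalicular membrane. Their metabolism is set by hormones, chiefly insulin and glucagon, and by growth hormone, catecholamines, cytokines and fibroblast growth factors, each acting through a receptor at the surface. Inside the cell, kinase cascades, cyclic AMP and small GTPases carry these signals to the nucleus, and many of the genes they switch on encode inhibitors of the same pathway.

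Genes differed between the groups in both directions. With limma and a threshold of 0.05 on the adjusted p (Benjamini-Hochberg), 6021 genes were called, which is 49.4% of those tested. Of these, 3068 were higher in NoBAL (25.2% of genes tested) and 2953 lower (24.2%). The change was at least 4-fold for 400 of the genes that rose and 645 of those that fell, and at least 16-fold for 31 and 90, on the scale of log2(FPKM + 1), which makes the changes of low genes look smaller than they are. For 74.1% of the genes tested the NoBAL libraries lay wholly above or wholly below the Control libraries, so a lack of overlap by itself separates few genes from the rest. For most of the called genes named below it was also a condition of being named, so it adds no support. All log2 changes below are on that scale and are given with limma's standard error (SE).

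The FPKM scale moved with the groups. In Control, albumin held 6.35% to 6.64% of all FPKM and mitochondrially encoded genes 14.5% to 15.9%. In NoBAL replicates 1 and 2 albumin held 0.93% and 1.46%, and mitochondrially encoded genes 21.3% and 18.2%. The sums themselves were 823762 to 829970 FPKM in Control and 791281 and 526565 in NoBAL. When each library was rescaled to the same sum without albumin and the mitochondrial genes (equal sums, for short), the median log2 change of all genes went from 0.04 to 0.29, a shift of 0.25, and the share of calls that were higher went from 51.0% to 65.9% (3744 higher, 30.7% of genes tested, and 1936 lower, 15.9%). Counts and medians of gene families are therefore given on both scales. They are to be read beside the shares of all genes, 25.2% higher and 24.2% lower as deposited. A second limit was the likeness of the Control libraries, which correlated at 0.992 to 0.994 against 0.956 for the 2 NoBAL libraries. With Control counted as 1 sample, and likewise the day 8 device libraries, 419 genes were called, of which 415 were also among the 6021.

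**Figure D1:**
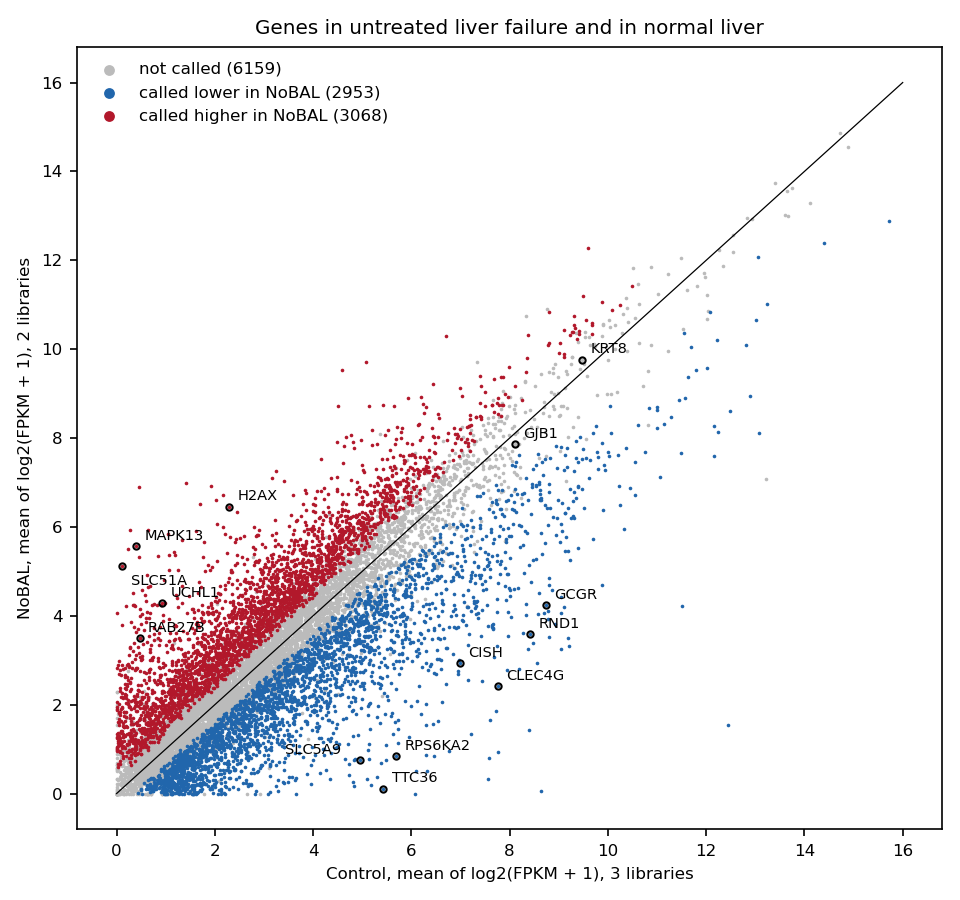
Mean log2(FPKM + 1) of each of the 12180 genes in the 3 Control libraries (horizontal axis) and the 2 NoBAL libraries (vertical axis); the line marks equal values. The 3068 genes called higher lie above it, the 2953 called lower below it, and GCGR, RND1 and CLEC4G are among the abundant Control genes that lie far below it.

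Cell type markers shifted as well. None of 8 hepatocyte markers rose and 5 fell, and their summed level was 87120.0 to 89860.0 FPKM in Control and 16760.0 to 24720.0 FPKM in NoBAL. Of 9 sinusoidal endothelial markers 1 rose and 4 fell, with a summed level of 501 to 545 FPKM in Control and 105 to 148 FPKM in NoBAL. The median log2 change of these 9 was 0.55, above 0, and the Control sum was largely CLEC4G and FCN2. Macrophage markers summed to 254 to 280.4 FPKM in Control and 86.5 to 92.01 FPKM in NoBAL, with 4 of 8 lower, and T and NK cell markers to 19.6 to 22.9 FPKM in Control and 6.99 to 8.74 FPKM in NoBAL, with 6 of 7 lower. Stellate cell and fibroblast markers summed to 314 to 349.6 FPKM in Control and 586 to 859 FPKM in NoBAL, with 2 of 9 higher and 1 lower. The 4 neutrophil markers tested, S100A8, S100A9 and S100A12 among them, all rose, with sums of 0.421 to 1.38 FPKM in Control and 27.8 to 238 FPKM in NoBAL. ELANE and MPO, also on that list, stayed under 1 FPKM in both groups and were not tested. The call of S100A8 was lost without NoBAL replicate 1 (adjusted p = 0.09). In bulk tissue, fewer cells of a type and less RNA per cell cannot be told apart, and the part of these shifts in the results below was not tested.

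**Figure D2:**
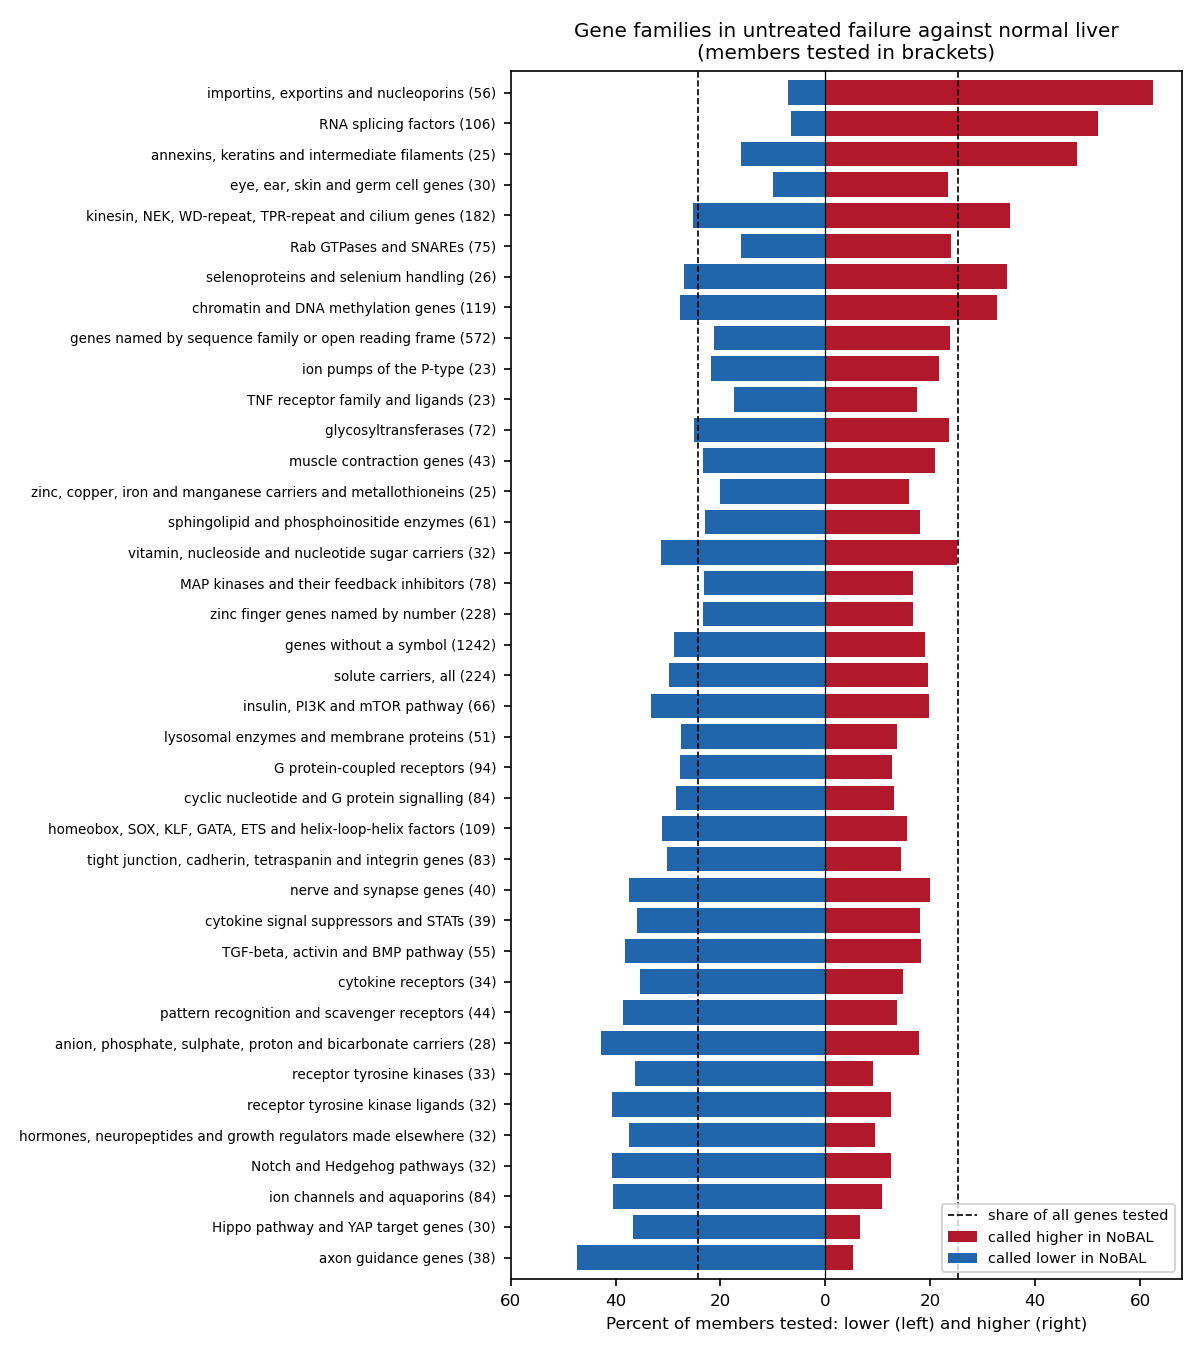
Share of each gene family's tested members that was called lower (left) or higher (right) in NoBAL against Control, with the shares over all genes tested (24.2% lower, 25.2% higher) as dashed lines. Families of 20 or more tested members are shown, except 1 that is not reported here; nuclear transport genes and splicing factors reach furthest to the right, and axon guidance genes (18 of 38 lower) furthest to the left.

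Carriers of the solute carrier families were compared next, since they set what hepatocytes can take up and release. Of the solute carriers as a whole, 44 of 224 rose and 67 fell (52 and 48 at equal sums), with a median log2 change of -0.20 (0.12 at equal sums), beside medians of 0.04 and 0.29 over all genes. The direction of that median thus depended on the scale. The 5 steepest falls by the rule for named genes were those of SLC22A9, SLC27A5, SLCO2B1, SLC5A9 and SLC10A1, and the steepest rises those of SLC51A and SLC51B.

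SLC51A and SLC51B encode the 2 subunits of the basolateral bile acid exporter, which returns bile acids to the blood. SLC51A was at 0.0577, 0.0622 and 0.133 FPKM in Control and 37.5 and 30.6 in NoBAL (log2 change 5.01 ± 1.06 SE, adjusted p = 0.006). SLC51B was at 0.194, 0.842 and 0.559 FPKM in Control and 19.99 and 18.5 in NoBAL (3.75 ± 0.62, adjusted p = 0.0019). Both were near absence in every Control library and at a like level in both NoBAL libraries. SLC10A1, the sodium-dependent carrier that takes bile acids up from the blood, went the other way, from 67.9, 68.2 and 68.8 FPKM in Control to 3.50 and 3.001 in NoBAL (-4.03 ± 0.28, adjusted p = 3.5e-05). In a fit with Control counted as 1 sample, SLC10A1 was still called and the exporter subunits were not (adjusted p = 0.17 for SLC51A and 0.12 for SLC51B). SLC51A lies on chromosome 13 at 133851775 to 133869753 and SLC51B on chromosome 1 at 163081145 to 163089491 of Sscrofa11.1.

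Among carriers of sugars, 2 of 15 rose and 7 fell (3 and 5 at equal sums), with a median log2 change of -0.45 (-0.24 at equal sums). SLC5A9, a sodium-coupled carrier of mannose and other hexoses, was at 28.2, 33.1 and 29.3 FPKM in Control and 0.648 and 0.740 in NoBAL (log2 change -4.20 ± 0.16). No Control library was below 28.2 FPKM and neither NoBAL library reached 1 FPKM. SLC45A2, best known from pigment cells, was abundant in normal pig liver at 125, 132 and 130.0 FPKM and stood at 30.4 and 6.12 FPKM in NoBAL (-3.12 ± 0.62). SLC2A8, an intracellular hexose carrier, was the only member of this list named among the rises, at 3.67, 3.37 and 2.91 FPKM in Control and 17.2 and 26.9 in NoBAL (2.39 ± 0.21). SLC2A2, the main glucose carrier of hepatocytes, was at 111, 112 and 114 FPKM in Control and 24.6 and 47.5 in NoBAL, below Control in both libraries, but was not called (adjusted p = 0.093). The 3 called carriers had adjusted p = 3.5e-06 to 0.0044. When Control was counted as 1 sample, SLC5A9 was still called and the other 2 were not.

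Carriers of organic anions and phosphate lost more members than they gained. Of the carriers of anions, phosphate, sulphate, protons and bicarbonate, 5 of 28 rose and 12 fell (5 and 10 at equal sums), with a median log2 change of -0.63 (-0.40 at equal sums). SLC17A3, a carrier that exports urate and other organic anions, was at 18.998, 19.9 and 18.9 FPKM in Control and 0.180 and 0.341 in NoBAL (log2 change -4.01 ± 0.26). Its neighbour in the family SLC17A1, a sodium and phosphate carrier, was at 42.9, 44.2 and 41.4 FPKM in Control and 1.76 and 3.33 in NoBAL (-3.66 ± 0.53). SLC13A3, which takes up succinate and other dicarboxylates with sodium, was at 9.83, 12.2 and 10.9 FPKM in Control and 0.616 and 0.0392 in NoBAL (-3.20 ± 0.21). All 3 were at 3.33 FPKM or less in both NoBAL libraries. SLC20A1, a widely expressed phosphate carrier, had a higher level in Control, 151, 159.6 and 150.4 FPKM, and was at 16.9 and 20.1 FPKM in NoBAL (-2.99 ± 0.16). SLC22A9, an organic anion carrier outside that list, was at 43.1, 45.1 and 43.3 FPKM in Control and 1.43 and 0.191 in NoBAL (-4.72 ± 0.27). SLCO2B1, an uptake carrier of the organic anion polypeptide family, was at 51.9, 52.1 and 52.6 FPKM in Control and 2.07 and 1.40 in NoBAL (-4.29 ± 0.16). Both were lower in each NoBAL library. SLC17A9, which loads ATP into vesicles, rose within the same family, from 12.1, 11.7 and 11.7 to 66.4 and 38.4 FPKM (2.01 ± 0.23). The 7 genes had adjusted p = 3.4e-06 to 0.001. In the fit with Control averaged, SLC17A3, SLC13A3, SLC20A1, SLC22A9 and SLCO2B1 were still called and the other 2 were not.

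Vitamin and nucleotide sugar carriers were counted as 1 list. In that list 8 of 32 rose and 10 fell (9 and 8 at equal sums), with a median log2 change of -0.19 (0.13 at equal sums). SLC19A2, a thiamine carrier, was at 18.5, 18.8 and 19.3 FPKM in Control and 2.71 and 3.48 in NoBAL (log2 change -2.29 ± 0.26). SLC23A1, a vitamin C carrier, was at 15.4, 18.1 and 16.8 FPKM in Control and 2.81 and 2.96 in NoBAL (-2.19 ± 0.16). Both vitamin carriers were lower in each NoBAL library, whereas several carriers that supply the endoplasmic reticulum and Golgi were higher. SLC35B1, which brings ATP into the endoplasmic reticulum, was at 7.80, 8.18 and 9.04 FPKM in Control and 42.9 and 22.5 in NoBAL (1.78 ± 0.29). SLC35A4 was at 10.7, 11.5 and 11.3 FPKM in Control and 30.8 and 37.5 in NoBAL (1.52 ± 0.15). SLC35D2, a carrier of nucleotide sugars in the same family, moved the opposite way, from 19.1, 18.96 and 17.2 to 6.04 and 4.13 FPKM (-1.69 ± 0.18). Among metal carriers, SLC40A1, the iron exporter ferroportin, was at 59.7, 55.7 and 57.2 FPKM in Control and 11.06 and 10.9 in NoBAL (-2.29 ± 0.38, adjusted p = 0.0019). The first 5 genes had adjusted p = 5.1e-05 to 0.0017. After averaging Control to 1 sample, none of them was called.

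**Figure D3:**
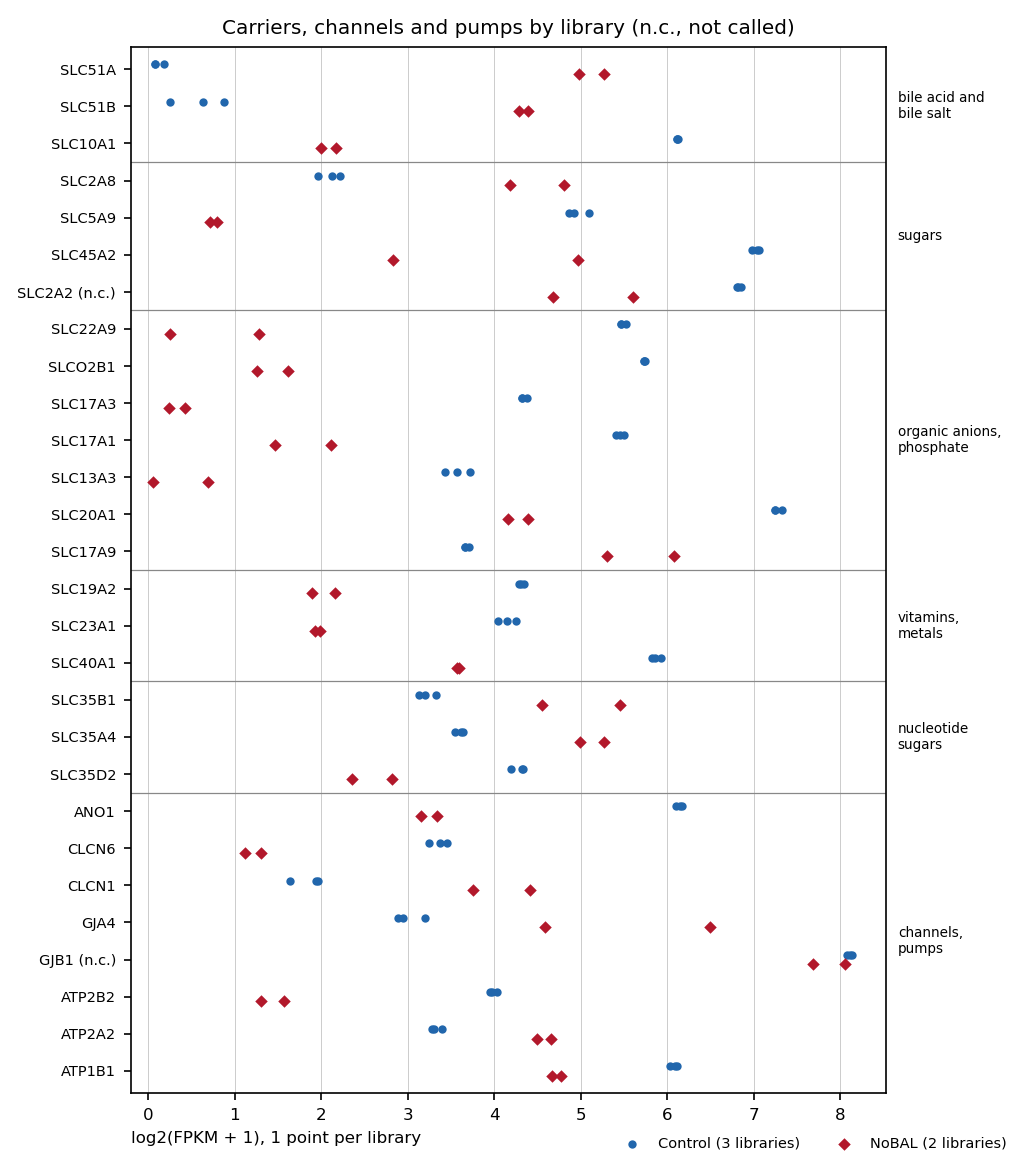
Values of named carriers, channels and pumps, as log2(FPKM + 1) with 1 point per library (circles, 3 Control libraries; diamonds, 2 NoBAL libraries; n.c. marks genes that were not called). SLC51A and SLC51B sit near 0 in Control only, SLC5A9 and SLC17A3 sit near 0 or 1 in NoBAL only, and the points of GJB1 lie close together.

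Ion channels were among the families with the fewest rises. Of the channels and aquaporins 9 of 84 rose and 34 fell (10 and 21 at equal sums), with a median log2 change of -0.34 (-0.12 at equal sums), so that 34 of 84 were lower on the deposited scale against 24.2% of all genes. ANO1, a calcium-activated chloride channel, was at 69.7, 67.4 and 71.1 FPKM in Control and 7.87 and 9.15 in NoBAL (log2 change -2.89 ± 0.30, adjusted p = 0.0002). CLCN6, a chloride and proton exchanger of endosomes, was at 8.46, 10.003 and 9.35 FPKM in Control and 1.47 and 1.17 in NoBAL (-2.15 ± 0.16, adjusted p = 5.6e-05). CLCN1, the chloride channel known from skeletal muscle, moved the other way, from 2.91, 2.85 and 2.11 to 12.5 and 20.3 FPKM (2.23 ± 0.22, adjusted p = 0.00016). Markers of skeletal muscle were at most 0.27 FPKM in sum in any Control library and 0.06 in any NoBAL library. GJA4, a gap junction protein of arterial endothelium, was higher in both NoBAL libraries but at unequal levels, 23.03 and 89.2 FPKM against 6.42, 6.73 and 8.22 in Control (2.52 ± 0.47, adjusted p = 0.0034). GJB1, the main gap junction protein of hepatocytes, was at 275, 279 and 269.9 FPKM in Control and 266 and 204 in NoBAL and was not called (adjusted p = 0.84). Counting Control as 1 sample, CLCN6 was still called and the other 3 were not.

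Of the P-type ion pumps, 5 of 23 rose and 5 fell (5 and 4 at equal sums), both shares (21.7%) near those of all genes (25.2% and 24.2%), with a median log2 change of -0.28 (-0.08 at equal sums). ATP2B2, a calcium pump of the plasma membrane, was at 15.4, 14.4 and 14.7 FPKM in Control and 1.97 and 1.48 in NoBAL (log2 change -2.54 ± 0.24, adjusted p = 0.00014). ATP2A2, the calcium pump of the endoplasmic reticulum, was at 8.73, 8.85 and 9.54 FPKM in Control and 24.2 and 21.6 in NoBAL (1.25 ± 0.15, adjusted p = 0.00049). The transcript of this plasma membrane calcium pump was thus lower and that of this endoplasmic reticulum pump higher. ATP1B1, the beta subunit of the sodium pump, was at 68.3, 67.2 and 64.3 FPKM in Control and 24.4 and 26.2 in NoBAL (-1.36 ± 0.16, adjusted p = 0.00034). Of the vacuolar proton pump subunits, 4 of 14 rose and 0 fell (6 and 0 at equal sums), with a median log2 change of 0.39 (0.67 at equal sums). None of the 3 called P-type pump genes was called with Control counted as 1 sample.

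Both receptors named here for hormones that release glucose fell steeply. Across the G protein-coupled receptors, 12 of 94 rose and 26 fell (14 and 16 at equal sums), with a median log2 change of -0.17 (0.05 at equal sums). GCGR, the glucagon receptor, was at 410.3, 466 and 403 FPKM in Control and 24.2 and 13.1 in NoBAL (log2 change -4.50 ± 0.48). ADRA1A, the alpha-1A adrenergic receptor, was at 42.003, 46.7 and 45.8 FPKM in Control and 3.17 and 3.47 in NoBAL (-3.41 ± 0.34). These are receptors through which glucagon and catecholamines release glucose from liver glycogen, and each was more than 10-fold lower in mean FPKM in NoBAL. FZD5, a receptor for Wnt ligands, was at 29.1, 32.3 and 30.9 FPKM in Control and 3.58 and 3.14 in NoBAL (-2.87 ± 0.27). GPR1, a receptor for chemerin, was at 10.6, 8.31 and 9.48 FPKM in Control and 0.170 and 0.223 in NoBAL (-3.12 ± 0.15). P2RY2, a receptor for extracellular ATP and UTP, was among the 12 that rose, from 5.49, 6.26 and 6.01 to 19.7 and 16.5 FPKM (1.46 ± 0.16). The 5 receptors had adjusted p = 7.8e-06 to 0.00025. Under the averaged fit, GPR1 was still called and the other 4 were not (adjusted p = 0.058 for GCGR). GCGR lies on chromosome 12 at 1149589 to 1157234 of Sscrofa11.1.

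The receptors for growth hormone, leptin and interleukin-6 fell, while other cytokine receptors rose. In this family 5 of 34 rose and 12 fell (7 and 9 at equal sums), with a median log2 change of -0.17 (0.11 at equal sums). GHR, the growth hormone receptor, was at 56.8, 50.9 and 56.1 FPKM in Control and 5.54 and 6.74 in NoBAL (log2 change -2.96 ± 0.27). LEPR, the leptin receptor, was at 5.31, 4.99 and 5.55 FPKM in Control and 0.605 and 1.013 in NoBAL (-1.80 ± 0.18). IL6R, which binds interleukin-6, a signal for acute phase protein synthesis and for liver regeneration, was at 24.8, 25.6 and 25.6 FPKM in Control and 5.69 and 3.93 in NoBAL (-2.20 ± 0.19). IL1R1, the signalling receptor for interleukin-1, was at 219, 232 and 215.0 FPKM in Control and 85.6 and 47.6 in NoBAL (-1.78 ± 0.32). All 4 were lower in both NoBAL libraries, and a lack of overlap with Control was a condition for naming them. IL17RA, a receptor for interleukin-17, was among the 5 that rose, from 11.6, 11.3 and 10.6 to 22.9 and 17.3 FPKM (0.79 ± 0.18, adjusted p = 0.0077). IL27RA, a receptor for interleukin-27, rose from 1.85, 1.42 and 2.22 to 4.86 and 5.36 FPKM (1.12 ± 0.20, adjusted p = 0.0026). In the TNF receptor family, counted together with its ligands, 4 of 23 rose and 4 fell (5 and 2 at equal sums), with a median log2 change of 0.24 (0.47 at equal sums). LTBR, the lymphotoxin beta receptor, was at 34.01, 28.7 and 30.5 FPKM in Control and 82.996 and 75.7 in NoBAL (1.33 ± 0.19). TNFRSF1B, a TNF receptor, was at 18.5, 19.997 and 18.1 FPKM in Control and 34.97 and 41.5 in NoBAL (0.98 ± 0.16). The other 6 genes had adjusted p = 8.8e-05 to 0.0029. With Control counted as 1 sample, none of the 8 was called.

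Receptor tyrosine kinases and their ligands were compared with all genes, of which 24.2% were lower (15.9% at equal sums). Of the receptors 3 of 33 rose and 12 fell (4 and 5 at equal sums), with a median log2 change of -0.30 (-0.02 at equal sums), and of the ligands 4 of 32 rose and 13 fell (4 and 8 at equal sums), with a median log2 change of -0.34 (-0.10 at equal sums). The share of receptors lower was 36.4% on the deposited scale, while at equal sums their 5 of 33 was near the background. FGFR4, through which gut FGF19 restrains bile acid synthesis, was at 34.3, 34.4 and 34.5 FPKM in Control and 12.5 and 12.96 in NoBAL (log2 change -1.37 ± 0.13). FGFR2 was at 9.29, 8.66 and 8.84 FPKM in Control and 2.45 and 1.72 in NoBAL (-1.70 ± 0.14). INSR, the insulin receptor, was at 7.20, 7.36 and 6.74 FPKM in Control and 3.26 and 1.36 in NoBAL (-1.35 ± 0.24). These 3 receptors were lower in both NoBAL libraries. A lack of overlap with Control was a condition for naming them and held for 74.1% of all genes tested. FGFR3 was at 38.6, 42.8 and 36.2 FPKM in Control and 38.6 and 34.997 in NoBAL and was not called (adjusted p = 0.82). Among the ligands, VEGFA, the growth factor of endothelial cells, was at 175, 159.8 and 170.0 FPKM in Control and 25.6 and 30.6 in NoBAL (-2.54 ± 0.33). CSF1, the growth factor of macrophages, was at 67.6, 77.8 and 71.4 FPKM in Control and 8.59 and 10.3 in NoBAL (-2.81 ± 0.33). The called genes had adjusted p = 9e-05 to 0.0024. When Control was counted as 1 sample, none of them was called.

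Scavenger and pattern recognition receptors included several steep falls. Of this family, 6 of 44 rose and 17 fell (8 and 14 at equal sums), with a median log2 change of -0.20 (0.03 at equal sums). CLEC4G, a lectin of sinusoidal endothelial cells, was at 211, 233 and 203 FPKM in Control and 7.65 and 2.29 in NoBAL (log2 change -5.34 ± 0.48). CD36, a scavenger receptor that takes up fatty acids, was at 125, 119.8 and 125 FPKM in Control and 7.45 and 6.58 in NoBAL (-3.96 ± 0.14). CLEC4F, a lectin of Kupffer cells, was at 5.09, 5.05 and 6.12 FPKM in Control and 0.117 and 0.120 in NoBAL (-2.52 ± 0.14). OIT3, another gene of sinusoidal endothelium, was at 15.1, 13.8 and 15.01 FPKM in Control and 0.698 and 0.454 in NoBAL (-3.31 ± 0.14). All 4 genes were far lower in both NoBAL libraries. FCN2, a ficolin among the sinusoidal markers, was at 217, 224 and 211 FPKM in Control and 19.4 and 33.3 in NoBAL (-3.04 ± 0.29, adjusted p = 0.00016). Of the 9 sinusoidal endothelial markers, 5 were not called lower. PECAM1, a marker of all endothelium, was at 17.9, 19.4 and 18.8 FPKM in Control and 26.5 and 56.6 in NoBAL and was not called (adjusted p = 0.13). ACKR1, a chemokine-binding receptor of venules and red cells, was under 1 FPKM in every Control library and at 13.6 and 9.55 FPKM in NoBAL (3.25 ± 0.32, adjusted p = 0.00017). COLEC11, a secreted lectin of the complement system, was at 109, 114 and 110.3 FPKM in Control and 28.8 and 24.8 in NoBAL (-2.02 ± 0.23, adjusted p = 0.00031). The first 4 genes had adjusted p = 3e-06 to 0.00011. In the fit with Control averaged, CLEC4G, CD36, CLEC4F, OIT3 and ACKR1 were still called and the other 2 were not.

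**Figure D4:**
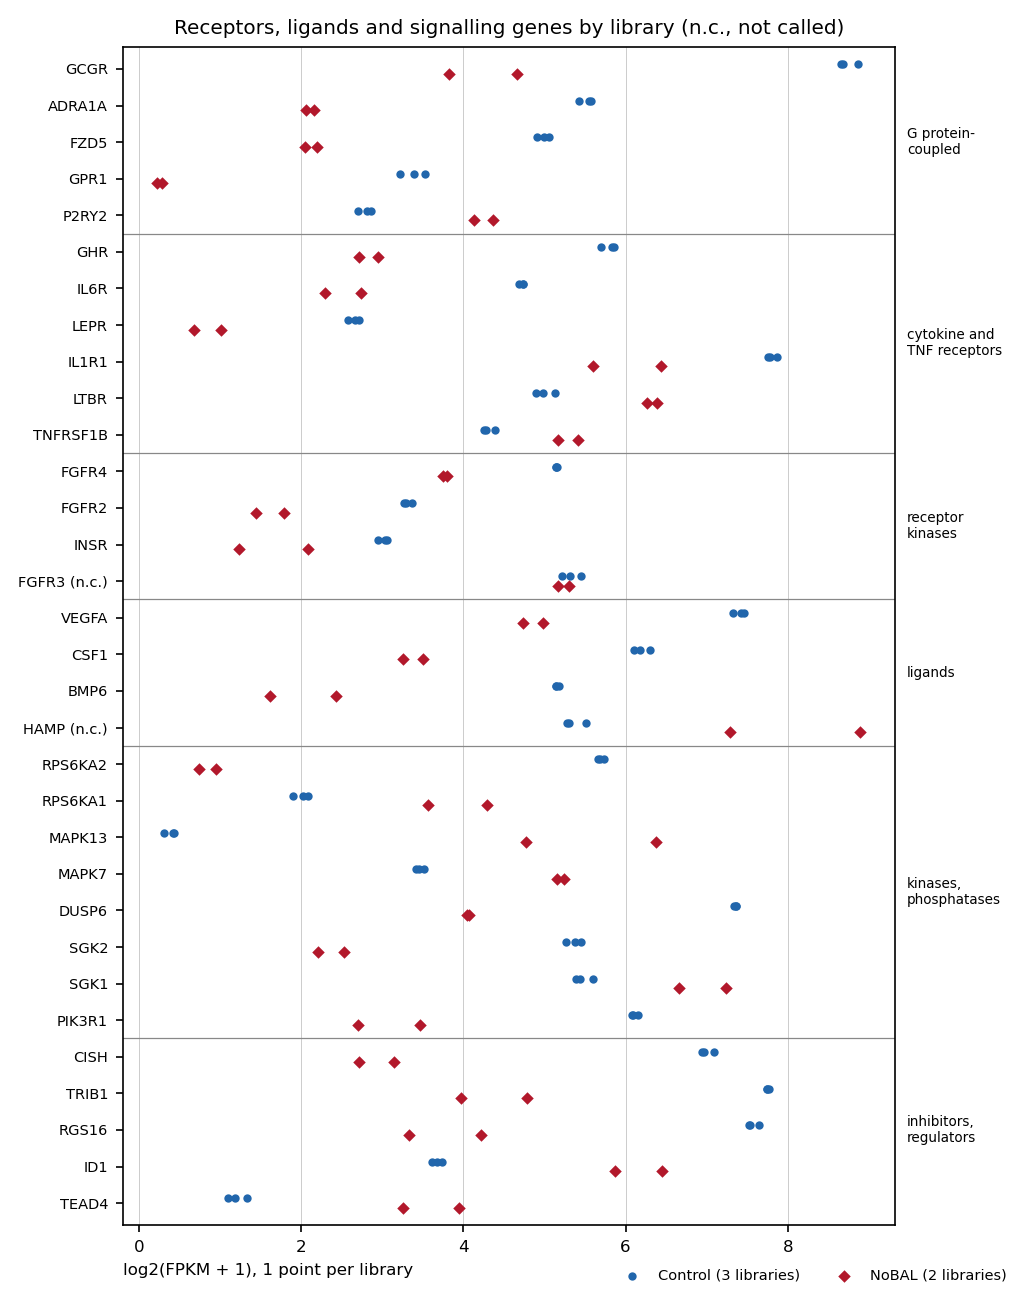
Values of named receptors, ligands and signalling genes, as log2(FPKM + 1) with 1 point per library (circles, 3 Control libraries; diamonds, 2 NoBAL libraries; n.c. marks genes that were not called). GCGR, RPS6KA2 and CISH are well below Control in both NoBAL libraries, MAPK13 and ID1 are above it, and FGFR3 overlaps.

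In the MAP kinase cascade, kinases changed in both directions and the named phosphatases fell. In this list 13 of 78 rose and 18 fell (14 and 13 at equal sums), with a median log2 change of -0.07 (0.18 at equal sums). MAPK13, a stress-activated kinase of the p38 group, was at 0.353, 0.240 and 0.344 FPKM in Control and 26.2 and 82.04 in NoBAL (log2 change 5.18 ± 0.49, adjusted p = 0.00015). MAPK7, the kinase also called ERK5, was at 9.94, 9.71 and 10.4 FPKM in Control and 34.5 and 36.9 in NoBAL (1.74 ± 0.40, adjusted p = 0.0084). DUSP6, a phosphatase that is switched on by ERK signalling and inactivates ERK, was at 161, 163 and 163 FPKM in Control and 15.5 and 15.8 in NoBAL (-3.30 ± 0.25, adjusted p = 5.8e-05). Its relative DUSP5 was at 28.9, 31.5 and 29.3 FPKM in Control and 5.13 and 3.74 in NoBAL (-2.52 ± 0.16, adjusted p = 2.3e-05). MAP3K13, an upstream kinase, was at 8.55, 8.10 and 9.29 FPKM in Control and 1.28 and 1.44 in NoBAL (-2.03 ± 0.22, adjusted p = 0.00024). Values of DUSP6 differed by less than 1 FPKM between the NoBAL libraries. After averaging Control to 1 sample, MAPK13, DUSP6 and DUSP5 were still called and MAPK7 and MAP3K13 were not (adjusted p = 0.046 for MAPK13).

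The ribosomal S6 kinases of the RSK group, which act below ERK, moved in opposite directions. RPS6KA2 was at 49.6, 52.3 and 50.4 FPKM in Control and 0.675 and 0.928 in NoBAL (log2 change -4.85 ± 0.33). RPS6KA1 was at 3.08, 3.25 and 2.74 FPKM in Control and 10.8 and 18.6 in NoBAL (1.92 ± 0.21). So did the related kinases SGK2 and SGK1. SGK2 was at 40.6, 42.7 and 37.4 FPKM in Control and 4.77 and 3.62 in NoBAL (-2.996 ± 0.16). SGK1 was at 42.4, 47.5 and 40.9 FPKM in Control and 149.7 and 100.3 in NoBAL (1.47 ± 0.21). In both pairs each member's NoBAL libraries lay outside the range of Control. That was a condition for naming these genes and held for 74.1% of all genes tested. Over the insulin, PI3K and mTOR pathway, to which these kinases were assigned, 13 of 66 rose and 22 fell (13 and 13 at equal sums), with a median log2 change of -0.35 (-0.12 at equal sums). PIK3R1, a regulatory subunit of PI3 kinase, was at 70.3, 67.4 and 66.3 FPKM in Control and 10.1 and 5.53 in NoBAL (-3.02 ± 0.26). GRB7, an adaptor that binds activated receptors, was at 22.2, 22.1 and 22.2 FPKM in Control and 1.57 and 0.826 in NoBAL (-3.42 ± 0.18). EIF4EBP1, which blocks translation until mTOR phosphorylates it, was at 50.2, 42.5 and 54.8 FPKM in Control and 203 and 133 in NoBAL (1.73 ± 0.22). TRIB1, a pseudokinase that brings proteins to degradation, was at 213, 217 and 213 FPKM in Control and 26.5 and 14.7 in NoBAL (-3.37 ± 0.25). The 8 genes had adjusted p = 1.1e-05 to 0.00093. Counting Control as 1 sample, RPS6KA2, SGK2, GRB7 and TRIB1 were still called and the other 4 were not.

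CISH and SOCS3, which answer growth hormone and interleukin-6, were lower in NoBAL, but the call of SOCS3 was less stable than that of CISH. Among cytokine signal suppressors and STATs, 7 of 39 rose and 14 fell (7 and 9 at equal sums), with a median log2 change of -0.26 (0.03 at equal sums). CISH, a suppressor that STAT5 switches on after growth hormone, was at 121, 135 and 124 FPKM in Control and 7.85 and 5.58 in NoBAL (log2 change -4.06 ± 0.18, adjusted p = 5.5e-06), and remained called with Control counted as 1 sample. SOCS3, the suppressor that STAT3 switches on, was at 236, 253 and 232 FPKM in Control and 104 and 16.8 in NoBAL (-2.48 ± 0.69, adjusted p = 0.019). The levels of SOCS3 in the NoBAL libraries differed by more than 6-fold. The call of SOCS3 was lost without NoBAL replicate 2 (adjusted p = 0.078) and without Control replicate 2 (adjusted p = 0.053). PTPN2, a phosphatase that switches off JAK kinases, was at 3.49, 3.25 and 3.60 FPKM in Control and 16.4 and 6.03 in NoBAL (1.32 ± 0.33, adjusted p = 0.013). Neither SOCS3 nor PTPN2 was called with Control counted as 1 sample.

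In the TGF-beta and BMP pathway, the named BMP ligands fell and the named target genes rose. Of this list 10 of 55 rose and 21 fell (13 and 14 at equal sums), with a median log2 change of -0.13 (0.14 at equal sums). The ligand BMP6, made by sinusoidal endothelium and the signal for hepcidin expression, was at 35.1, 34.3 and 34.3 FPKM in Control and 2.08 and 4.40 in NoBAL (log2 change -3.12 ± 0.29). BMP2 was at 18.9, 17.2 and 18.3 FPKM in Control and 1.42 and 3.77 in NoBAL (-2.49 ± 0.28). The target genes ID1 and ID3, which encode inhibitors of helix-loop-helix factors and are switched on by BMP signals, were higher. ID1 was at 12.3, 11.3 and 11.8 FPKM in Control and 57.7 and 86.3 in NoBAL (2.49 ± 0.22). ID3 was at 32.2, 33.6 and 32.4 FPKM in Control and 109 and 109 in NoBAL (1.71 ± 0.15). HAMP, which encodes hepcidin, was at 44.6, 37.8 and 38.3 FPKM in Control and 474 and 155 in NoBAL, above Control in both libraries but far apart, and was not called (adjusted p = 0.15). NBL1, a secreted BMP inhibitor, was at 51.3, 53.1 and 48.1 FPKM in Control and 11.7 and 10.2 in NoBAL (-2.12 ± 0.15). The activin-binding protein FSTL3 was at 22.1, 24.3 and 23.5 FPKM in Control and 177 and 49.3 in NoBAL (1.96 ± 0.46). The 6 called genes had adjusted p = 3.8e-05 to 0.0093. Under the averaged fit, none of them was called.

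The Hippo and Notch pathways restrain growth and set the fate of biliary cells. Of Hippo pathway members and target genes of YAP, 2 of 30 rose and 11 fell (3 and 7 at equal sums), with a median log2 change of -0.38 (-0.13 at equal sums). TEAD4, a DNA-binding partner of YAP, was at 1.28, 1.13 and 1.52 FPKM in Control and 14.4 and 8.58 in NoBAL (log2 change 2.40 ± 0.31). The named target genes of YAP were lower. ANKRD1 was at 8.04, 7.97 and 7.49 FPKM in Control and 1.96 and 1.94 in NoBAL (-1.58 ± 0.16). CCN2 was at 28.5, 25.3 and 27.6 FPKM in Control and 12.9 and 10.6 in NoBAL (-1.15 ± 0.17). CCN1 was at 84.6, 89.05 and 83.6 FPKM in Control and 55.1 and 21.3 in NoBAL (-1.29 ± 0.34). F3, tissue factor, which was counted in this list as a target, was at 69.8, 69.4 and 72.9 FPKM in Control and 5.10 and 3.69 in NoBAL (-3.75 ± 0.28). A higher level of a TEAD factor thus stood beside lower levels of those 4 target genes in both NoBAL libraries. Of the Notch and Hedgehog pathways, 4 of 32 rose and 13 fell (5 and 7 at equal sums), with a median log2 change of -0.46 (-0.29 at equal sums). NOTCH4, a Notch receptor of endothelium, was at 5.44, 6.19 and 5.31 FPKM in Control and 1.53 and 1.04 in NoBAL (-1.55 ± 0.20). The Notch target HEYL was at 8.86, 9.14 and 8.44 FPKM in Control and 2.44 and 3.08 in NoBAL (-1.39 ± 0.14). The Gli-family factor GLI4 was at 8.59, 10.3 and 9.59 FPKM in Control and 34.4 and 23.4 in NoBAL (1.49 ± 0.23). The 8 genes had adjusted p = 5.1e-05 to 0.016. With Control counted as 1 sample, F3 was still called and the other 7 were not.

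Regulators of cyclic AMP and G protein signals were also measured, since glucagon and catecholamines act through them. In this list 11 of 84 rose and 24 fell (16 and 12 at equal sums), with a median log2 change of -0.30 (-0.10 at equal sums). RGS16, which shortens G protein signals, was at 185, 199 and 182 FPKM in Control and 17.5 and 9.02 in NoBAL (log2 change -3.80 ± 0.38). AKAP12, a scaffold that holds protein kinase A, was at 19.9, 21.2 and 21.5 FPKM in Control and 1.05 and 0.992 in NoBAL (-3.43 ± 0.31). CREM, a factor that answers cyclic AMP, was at 48.1, 48.9 and 44.9 FPKM in Control and 13.7 and 9.81 in NoBAL (-1.94 ± 0.28). Each was lower in both NoBAL libraries. GRK6, a kinase that desensitises G protein-coupled receptors, was higher, at 7.87, 7.98 and 7.69 FPKM in Control and 29.1 and 26.3 in NoBAL (1.70 ± 0.18). The 4 genes had adjusted p = 0.00012 to 0.00096. When Control was counted as 1 sample, AKAP12 was still called and the other 3 were not.

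Small GTPases that act on cell shape and adhesion changed in both directions. RND1, an atypical member that loosens cell adhesion, was at 330.1, 367 and 331 FPKM in Control and 20.9 and 5.67 in NoBAL (log2 change -4.83 ± 0.46). RHOB, an immediate early GTPase of endosomes, was at 492, 509 and 494 FPKM in Control and 70.4 and 73.7 in NoBAL (-2.77 ± 0.16). In contrast, CDC42 was at 42.3, 38.3 and 42.7 FPKM in Control and 93.9 and 108 in NoBAL (1.28 ± 0.16). Its effector CDC42EP1 was at 8.02, 6.27 and 6.08 FPKM in Control and 69.2 and 33.6 in NoBAL (2.67 ± 0.30). ARHGDIA, which keeps small GTPases in the cytosol, was at 67.3, 72.1 and 70.6 FPKM in Control and 319 and 319.6 in NoBAL (2.17 ± 0.34). The CDC42 genes were thus higher and the RND1 and RHOB genes lower in both NoBAL libraries. The 5 genes had adjusted p = 1.8e-05 to 0.0014. In the fit with Control averaged, RND1 was still called and the other 4 were not.

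Vesicle traffic, the lysosome and the cell surface changed member by member. Of Rab GTPases and SNAREs, 18 of 75 rose and 12 fell (26 and 5 at equal sums), with a median log2 change of 0.21 (0.51 at equal sums). RAB17, an epithelial Rab of the recycling route to the apical surface, was at 140.4, 152 and 139 FPKM in Control and 9.60 and 12.5 in NoBAL (log2 change -3.60 ± 0.21). RAB27B, which docks secretory vesicles, was at 0.445, 0.430 and 0.289 FPKM in Control and 11.8 and 9.06 in NoBAL (3.03 ± 0.27). RAB34, a Golgi and ciliary Rab, was at 2.25, 2.82 and 1.61 FPKM in Control and 41.98 and 15.9 in NoBAL (3.08 ± 0.39). RAB11B, a general recycling Rab, was at 129, 125 and 126 FPKM in Control and 143 and 119 in NoBAL and was not called (adjusted p = 0.89). Of lysosomal genes, 7 of 51 rose and 14 fell (9 and 6 at equal sums), with a median log2 change of -0.32 (0.02 at equal sums). ARSA, which degrades sulphatides, was at 39.3, 35.7 and 34.1 FPKM in Control and 7.28 and 5.61 in NoBAL (-2.33 ± 0.17). Its relative ARSB, which degrades dermatan sulphate, was at 5.39, 4.93 and 6.13 FPKM in Control and 23.4 and 28.4 in NoBAL (2.05 ± 0.35). The lysosomal protease CTSF was at 114, 114 and 119 FPKM in Control and 25.2 and 12.7 in NoBAL (-2.62 ± 0.26). CTSW, a cathepsin of cytotoxic lymphocytes, was at 9.99, 11.7 and 9.50 FPKM in Control and 0.560 and 0.0812 in NoBAL (-3.13 ± 0.28), beside the lower sums of T and NK cell markers given above. The 7 called genes had adjusted p = 1.7e-05 to 0.0021. After averaging Control to 1 sample, RAB17, RAB27B and CTSW were still called and the other 4 were not.

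Of enzymes that build glycans, 17 of 72 rose and 18 fell (22 and 14 at equal sums), shares near the 25.2% and 24.2% of all genes, with a median log2 change of -0.01 (0.25 at equal sums). EXTL1, an enzyme of heparan sulphate synthesis, was at 85.6, 92.5 and 84.4 FPKM in Control and 1.38 and 0.357 in NoBAL (log2 change -5.62 ± 0.63, adjusted p = 0.00029). ST6GAL1, which adds sialic acid to secreted liver glycoproteins, was at 114, 114 and 115 FPKM in Control and 33.4 and 23.9 in NoBAL (-1.98 ± 0.36, adjusted p = 0.0029). CHST7, a sulphotransferase of chondroitin, rose and was at 2.50, 1.59 and 2.24 FPKM in Control and 17.8 and 9.47 in NoBAL (2.18 ± 0.42, adjusted p = 0.004). None of the 3 was called with Control counted as 1 sample. Of junction, cadherin, tetraspanin and integrin genes, 12 of 83 rose and 25 fell (12 and 11 at equal sums), with a median log2 change of -0.18 (0.04 at equal sums). Both classical cadherins of hepatocytes were lower. CDH1, E-cadherin, was at 75.99, 71.6 and 73.9 FPKM in Control and 15.02 and 37.4 in NoBAL (-1.59 ± 0.38, adjusted p = 0.0097). CDH2, N-cadherin, was at 17.6, 18.5 and 19.3 FPKM in Control and 4.44 and 6.41 in NoBAL (-1.62 ± 0.23, adjusted p = 0.00098). At equal sums CDH1 was not called (adjusted p = 0.064). Among annexins, keratins and other filament genes, 12 of 25 rose and 4 fell (13 and 4 at equal sums), with a median log2 change of 0.65 (0.96 at equal sums). ANXA5, which binds exposed phosphatidylserine, was at 3.05, 2.48 and 3.04 FPKM in Control and 14.5 and 19.96 in NoBAL (2.23 ± 0.21, adjusted p = 0.00013). LMNB1, a lamin of the nuclear envelope, was at 3.18, 4.49 and 4.02 FPKM in Control and 22.1 and 35.2 in NoBAL (2.57 ± 0.24, adjusted p = 0.00015). KRT8, a keratin of hepatocytes, was at 706, 733 and 693 FPKM in Control and 828 and 911 in NoBAL and was not called (adjusted p = 0.61). CDH1, CDH2, ANXA5 and LMNB1 were not called with Control counted as 1 sample.

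Genes of nuclear transport and splicing rose far more often than they fell. Of importins, exportins and nucleoporins, which carry proteins and RNA through the nuclear pore, 35 of 56 rose and 4 fell (37 and 1 at equal sums), with a median log2 change of 0.88 (1.16 at equal sums). KPNA2, an importin alpha that is high in dividing cells, was at 4.41, 5.25 and 3.89 FPKM in Control and 69.1 and 90.7 in NoBAL (log2 change 3.87 ± 0.24). Its export receptor CSE1L was at 5.54, 4.72 and 5.47 FPKM in Control and 28.6 and 24.2 in NoBAL (2.13 ± 0.16). RANBP1, which acts on the Ran GTPase that drives transport, was at 28.2, 25.3 and 29.2 FPKM in Control and 262 and 183 in NoBAL (2.95 ± 0.23). RCC1, the Ran exchange factor, was at 1.56, 0.946 and 1.12 FPKM in Control and 6.41 and 13.1 in NoBAL (2.22 ± 0.26). The importin IPO8 was among the 4 members that fell, at 6.70, 6.07 and 6.79 FPKM in Control and 2.45 and 2.64 in NoBAL (-1.08 ± 0.12). Each of these was called with adjusted p = 2.3e-05 to 0.00038. Counting Control as 1 sample, KPNA2 was still called and the other 4 were not.

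Among splicing factors 55 of 106 rose and 7 fell (64 and 2 at equal sums), with a median log2 change of 0.61 (0.92 at equal sums). Core proteins of the spliceosome's small nuclear particles were among the clearest rises. SNRPG was at 18.5, 20.8 and 19.4 FPKM in Control and 192 and 96.8 in NoBAL (log2 change 2.74 ± 0.28). SNRPF was at 11.5, 12.9 and 13.2 FPKM in Control and 83.6 and 66.4 in NoBAL (2.48 ± 0.21). SNRPD1 was at 3.68, 3.65 and 3.57 FPKM in Control and 20.5 and 18.1 in NoBAL (2.13 ± 0.13). RBM3, an RNA-binding protein induced by mild cold, was at 32.8, 37.03 and 37.2 FPKM in Control and 227 and 370.1 in NoBAL (2.99 ± 0.25). Some splicing factors moved the opposite way. ESRP2, the epithelial splicing regulator of mature hepatocytes, was at 92.02, 101 and 95.1 FPKM in Control and 23.2 and 35.4 in NoBAL (-1.71 ± 0.28). SF3B1, which recognises the branch site, was at 36.7, 38.5 and 38.4 FPKM in Control and 21.5 and 16.2 in NoBAL (-0.98 ± 0.17). The 6 genes had adjusted p = 2.3e-05 to 0.0023. Under the averaged fit, none of them was called.

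Chromatin genes changed in both directions, as did all genes tested. Of 119 members 39 rose and 33 fell (44 and 14 at equal sums), with a median log2 change of 0.00 (0.26 at equal sums). On the deposited scale 32.8% were higher and 27.7% lower, beside 25.2% and 24.2% of all genes. The named genes known from dividing cells rose. The histone gene H2AX was at 4.91, 2.54 and 4.66 FPKM in Control and 89.5 and 84.1 in NoBAL (log2 change 4.16 ± 0.23). HMGB2 was at 3.30, 2.73 and 3.29 FPKM in Control and 34.9 and 37.9 in NoBAL (3.19 ± 0.17). UHRF1, which copies DNA methylation to the new strand, was at 0.727, 0.536 and 0.805 FPKM in Control and 7.91 and 12.7 in NoBAL (2.71 ± 0.33). The named histone-modifying enzymes were lower. The demethylase KDM6B was at 41.3, 42.2 and 41.2 FPKM in Control and 5.45 and 4.68 in NoBAL (-2.81 ± 0.28). The methyltransferase EZH1 was at 8.53, 9.86 and 8.33 FPKM in Control and 2.23 and 1.70 in NoBAL (-1.74 ± 0.17). The deacetylase HDAC5 was at 31.5, 33.1 and 31.1 FPKM in Control and 10.1 and 8.01 in NoBAL (-1.72 ± 0.28). The 6 genes had adjusted p = 1.2e-05 to 0.0016. With Control counted as 1 sample, H2AX and HMGB2 were still called and the other 4 were not.

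Of the DNA-binding factors in the homeobox, SOX, KLF, GATA, ETS and helix-loop-helix families, 17 of 109 rose and 34 fell (23 and 25 at equal sums), with a median log2 change of -0.23 (0.03 at equal sums). KLF6, induced early after liver injury, was at 86.3, 87.9 and 87.5 FPKM in Control and 10.5 and 14.4 in NoBAL (log2 change -2.73 ± 0.16). BHLHE40, a clock and stress factor, was at 253, 260.5 and 254 FPKM in Control and 30.4 and 14.3 in NoBAL (-3.55 ± 0.62). EGR1, an immediate early factor, was at 176, 165 and 175 FPKM in Control and 22.4 and 28.5 in NoBAL (-2.72 ± 0.35). Day 0 livers thus held the higher levels of these rapidly induced genes. ZFP36, which destabilises cytokine mRNA and is induced in the same way, was at 1454, 1552 and 1473 FPKM in Control and 215.2 and 142 in NoBAL (-3.08 ± 0.25). MYBL2, a cell cycle factor, was at 2.06, 2.73 and 2.50 FPKM in Control and 61.4 and 39.8 in NoBAL (3.88 ± 0.39). The 5 genes had adjusted p = 2e-05 to 0.0025. When Control was counted as 1 sample, KLF6 was still called and the other 4 were not. Of zinc finger genes named by number, 38 of 228 rose and 53 fell (51 and 26 at equal sums), with a median log2 change of -0.06 (0.14 at equal sums).

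Members of some metabolic branches outside the main liver pathways changed, beside 25.2% higher and 24.2% lower over all genes tested. In polyamine metabolism, 5 of 18 rose and 4 fell (5 and 4 at equal sums), near the shares of all genes on the deposited scale. The median log2 change was 0.02 (0.30 at equal sums). SRM, spermidine synthase, was at 4.10, 3.65 and 4.50 FPKM in Control and 47.5 and 19.7 in NoBAL (log2 change 2.64 ± 0.34). SAT1, which starts the breakdown of polyamines, was at 349, 359 and 338 FPKM in Control and 119 and 118 in NoBAL (-1.55 ± 0.35). The transcript of the synthase was thus higher and that of the breakdown enzyme lower in both NoBAL libraries. AGMAT, which was assigned to the same list, was at 522, 556 and 499 FPKM in Control and 109 and 39.97 in NoBAL (-2.97 ± 0.44). Among selenoproteins, 9 of 26 rose and 7 fell (10 and 5 at equal sums), with a median log2 change of 0.12 (0.45 at equal sums). SELENOP, which carries selenium from liver to other organs, was at 1598, 1514 and 1596 FPKM in Control and 158 and 608 in NoBAL (-2.33 ± 0.52). DIO1, which activates thyroid hormone, was at 34.9, 34.03 and 34.7 FPKM in Control and 8.57 and 8.88 in NoBAL (-1.87 ± 0.40). SEPHS1, a relative of selenophosphate synthase, was at 7.31, 9.16 and 7.65 FPKM in Control and 26.9 and 25.2 in NoBAL (1.58 ± 0.26). Among sphingolipid and phosphoinositide enzymes, 11 of 61 rose and 14 fell (15 and 11 at equal sums), with a median log2 change of 0.07 (0.33 at equal sums). LPCAT3, which puts arachidonate into phospholipids, was at 29.2, 28.1 and 31.6 FPKM in Control and 104 and 133.6 in NoBAL (1.96 ± 0.21). UGCG, which makes glucosylceramide, was at 5.61, 5.78 and 6.34 FPKM in Control and 0.204 and 0.578 in NoBAL (-2.32 ± 0.15). The 8 genes had adjusted p = 2.7e-05 to 0.0077. In the fit with Control averaged, UGCG was still called and the other 7 were not.

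Hormone genes were mostly lower where they changed, and 3 of 32 rose and 12 fell (5 and 8 at equal sums), with a median log2 change of -0.32 (-0.03 at equal sums). ANGPTL8, a liver protein induced by insulin, was at 11.7, 15.3 and 16.8 FPKM in Control and 0.131 and 0.203 in NoBAL (log2 change -3.73 ± 0.46, adjusted p = 0.00045). EDN1, the vasoconstrictor endothelin, was at 9.54, 8.96 and 8.86 FPKM in Control and 2.10 and 0.635 in NoBAL (-2.17 ± 0.25, adjusted p = 0.00036). After averaging Control to 1 sample, neither of these 2 was called.

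Genes best known from other organs changed in both directions, and some of them were abundant in normal pig liver. Of nerve and synapse genes, 8 of 40 rose and 15 fell (11 and 8 at equal sums), with a median log2 change of -0.18 (0.11 at equal sums). UCHL1, an abundant ubiquitin hydrolase of neurons, was at 0.863, 1.32 and 0.595 FPKM in Control and 15.6 and 21.9 in NoBAL (log2 change 3.36 ± 0.27). STMN1, which takes microtubules apart, was at 9.91, 11.6 and 7.77 FPKM in Control and 123.3 and 138 in NoBAL (3.63 ± 0.24). SHANK2, a scaffold of the synapse, was at 20.001, 21.8 and 20.4 FPKM in Control and 3.16 and 2.20 in NoBAL (-2.57 ± 0.30). HOMER1, which binds it, was at 9.44, 10.3 and 9.28 FPKM in Control and 0.794 and 1.35 in NoBAL (-2.38 ± 0.27). KIF1A, the kinesin that carries synaptic vesicles along axons, was at 16.6, 16.97 and 16.2 FPKM in Control and 0.136 and 0.695 in NoBAL (-3.66 ± 0.18). Both scaffold genes and this motor were thus expressed in normal liver and at 3.16 FPKM or less in NoBAL. Of axon guidance genes, 2 of 38 rose and 18 fell (2 and 14 at equal sums), with a median log2 change of -0.54 (-0.25 at equal sums). SEMA4G, a semaphorin, was at 30.6, 33.1 and 32.3 FPKM in Control and 5.83 and 3.57 in NoBAL (-2.56 ± 0.25). NTN1, netrin-1, was at 8.60, 6.85 and 8.78 FPKM in Control and 1.97 and 2.85 in NoBAL (-1.42 ± 0.19). The 7 genes had adjusted p = 8.8e-06 to 0.00066. Counting Control as 1 sample, UCHL1, STMN1 and KIF1A were still called and the other 4 were not.

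Among genes of muscle contraction, 9 of 43 rose and 10 fell (14 and 9 at equal sums), with a median log2 change of 0.17 (0.40 at equal sums). On the deposited scale the shares, 20.9% and 23.3%, were near the 25.2% and 24.2% of all genes. PVALB, the calcium buffer of fast muscle, was at 67.7, 69.1 and 61.3 FPKM in Control and was listed at 0 in both NoBAL libraries (adjusted p = 8.6e-07). The skeletal muscle markers measured, among them ACTA1, CKM and TNNT3, were all under 1 FPKM in every library. CKB, the brain form of creatine kinase, was at 20.1, 17.1 and 17.7 FPKM in Control and 52.7 and 107 in NoBAL (log2 change 1.98 ± 0.38, adjusted p = 0.0036). MYH9, a myosin of non-muscle cells, was at 28.3, 31.3 and 27.96 FPKM in Control and 9.21 and 11.3 in NoBAL (-1.43 ± 0.31, adjusted p = 0.0068). Of genes known from eye, ear, skin and germ cells, 7 of 30 rose and 3 fell (8 and 3 at equal sums), with a median log2 change of 0.07 (0.23 at equal sums). TECTB, a protein of the inner ear's tectorial membrane, was at 7.89, 7.58 and 7.75 FPKM in Control and at 0.0346 and 0 in NoBAL (-3.10 ± 0.11, adjusted p = 2.7e-06). SPATA4, named for spermatogenesis, was at 5.43, 4.65 and 5.46 FPKM in Control and 0.911 and 0.816 in NoBAL (-1.73 ± 0.13, adjusted p = 5.1e-05). TEX30, named for testis expression, was at 1.03, 0.987 and 1.55 FPKM in Control and 6.87 and 6.48 in NoBAL (1.82 ± 0.24, adjusted p = 0.0007). SCGB1A1, the secretoglobin of airway club cells, was at 24.9, 32.2 and 25.4 FPKM in Control and at 0 and 0.269 in NoBAL (-4.65 ± 0.33, adjusted p = 3.9e-05). Under the averaged fit, PVALB, TECTB, SPATA4 and SCGB1A1 were still called and the other 3 were not.

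**Figure D5:**
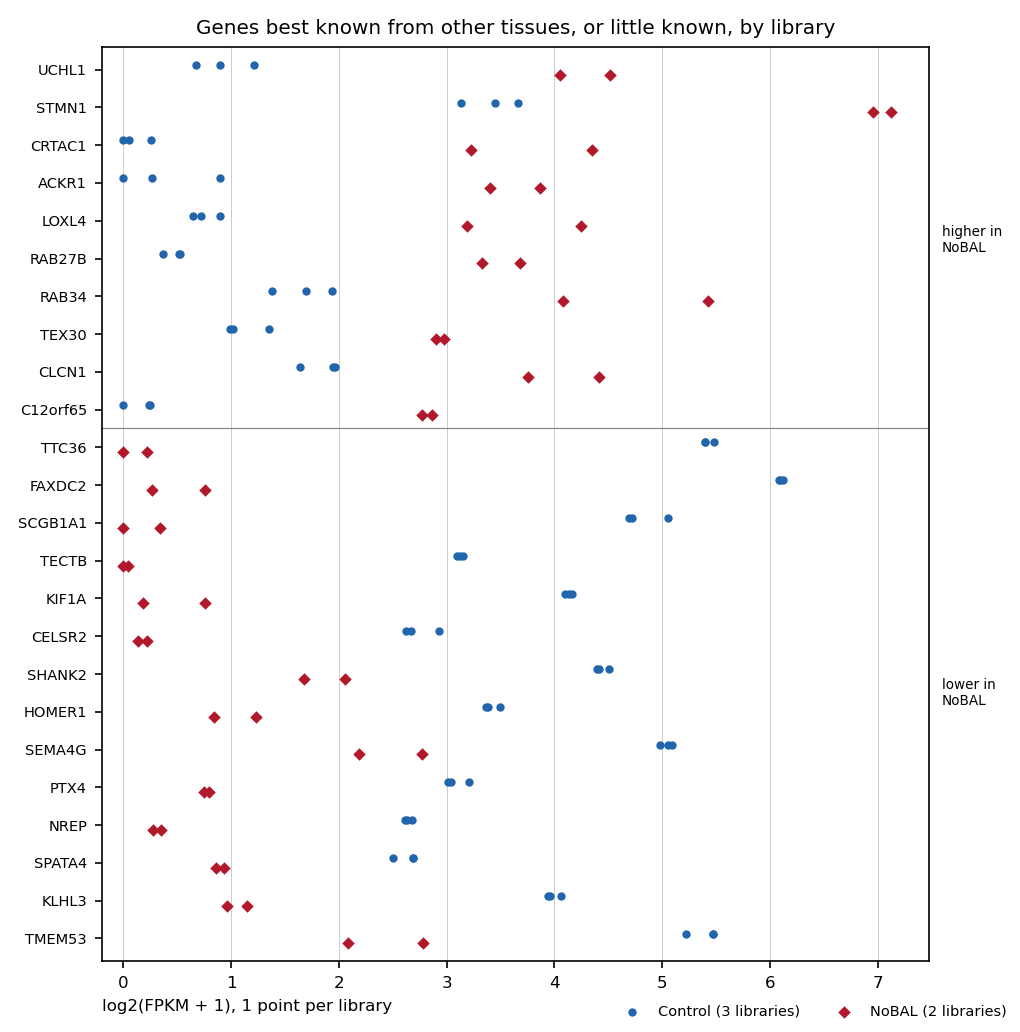
Values of genes best known from other tissues, or little known, as log2(FPKM + 1) with 1 point per library (circles, 3 Control libraries; diamonds, 2 NoBAL libraries). The upper block holds genes that were near absence or low in Control and higher in NoBAL, the lower block genes such as TTC36 and FAXDC2 that were expressed in every Control library and near 0 in NoBAL.

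Some genes were switched between detection and near absence. Among the tested genes with a symbol, 66 had every Control library under 1 FPKM and every NoBAL library at or above 5 FPKM. In 51 the reverse held. The 1242 tested genes without a symbol were not counted here. The 66 included the kinesin KIF20A of dividing cells at 0.0887, 0.351 and 0.369 FPKM in Control and 18.1 and 18.04 in NoBAL and the centromere histone CENPA at 0.268, 0.431 and 0.222 FPKM in Control and 17.3 and 18.3 in NoBAL. They also included CRTAC1, a matrix protein of cartilage, at 0.196, 0.0405 and 0 FPKM in Control and 8.35 and 19.3 in NoBAL (log2 change 3.68 ± 0.40). LOXL4, which cross-links collagen, was at 0.653, 0.858 and 0.562 FPKM in Control and 17.98 and 8.14 in NoBAL (2.96 ± 0.28). LCN2, an iron-sequestering lipocalin of neutrophils and injured epithelium, was at 0.723, 0.683 and 0.693 FPKM in Control and 13.4 and 9.13 in NoBAL (2.83 ± 0.22), beside the rise of neutrophil markers given above. Among the 51, FAXDC2, a hydroxylase-like protein, was at 66.97, 68.6 and 67.2 FPKM in Control and 0.689 and 0.201 in NoBAL (-5.59 ± 0.20). TTC36, a small protein of liver and kidney, was at 41.2, 43.6 and 41.2 FPKM in Control and 0 and 0.168 in NoBAL (-5.31 ± 0.14). CELSR2, an adhesion receptor of planar polarity, was at 5.37, 6.60 and 5.17 FPKM in Control and 0.103 and 0.169 in NoBAL (-2.56 ± 0.13). ASPA, which cleaves N-acetylaspartate, was at 7.53, 6.41 and 8.49 FPKM in Control and listed at 0 in both NoBAL libraries. The 6 genes with a log2 change given here had adjusted p = 1.6e-06 to 0.00024. With Control counted as 1 sample, LCN2, FAXDC2, TTC36 and CELSR2 were still called and the other 2 were not.

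Of genes named by an open reading frame or a sequence family, 136 of 572 rose and 122 fell (163 and 77 at equal sums). The shares on the deposited scale, 23.8% and 21.3%, were near the 25.2% and 24.2% of all genes. The median log2 change was 0.02 (0.27 at equal sums). C12orf65, a mitochondrial peptide release factor, was at 0.177, 0.188 and 0 FPKM in Control and 6.29 and 5.81 in NoBAL (log2 change 2.66 ± 0.23). FAM214A was at 38.6, 39.6 and 37.97 FPKM in Control and 3.46 and 2.46 in NoBAL (-3.34 ± 0.19). TMEM53 was at 43.4, 43.3 and 36.3 FPKM in Control and 5.87 and 3.23 in NoBAL (-2.96 ± 0.27). KLHL3, an adaptor for protein degradation known from the kidney tubule, was at 14.5, 15.6 and 14.3 FPKM in Control and 1.21 and 0.956 in NoBAL (-2.93 ± 0.13). The 4 genes had adjusted p = 5.5e-06 to 0.00011. When Control was counted as 1 sample, C12orf65, FAM214A and KLHL3 were still called and TMEM53 was not. Of the 1242 genes tested that had no symbol, 235 of 1242 rose and 358 fell (306 and 270 at equal sums), with a median log2 change of -0.13 (0.07 at equal sums). The gene ENSSSCG00000048087 was at 192, 173 and 199 FPKM in Control and at 0.591 and 0 FPKM in NoBAL (log2 change -7.22 ± 0.20, adjusted p = 1.7e-06). ENSSSCG00000017032 moved the other way, from 0.606, 0.133 and 1.11 FPKM in Control to 85.1 and 42.0 FPKM in NoBAL (5.28 ± 0.43, adjusted p = 7.3e-05).

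The 2 NoBAL libraries did not match in every gene, and whether they came from separate animals is not known. Of 4791 genes that averaged 10 FPKM or more in NoBAL, 63 were at least 4-fold higher in NoBAL replicate 1 and 9 at least 4-fold higher in NoBAL replicate 2. These counts are on the deposited scale, where replicate 1 summed to 791281 FPKM and replicate 2 to 526565. They were not repeated at equal sums, so the excess in replicate 1 is not free of that difference. NNMT, which methylates nicotinamide, was at 187, 192 and 174 FPKM in Control and 1233 and 56.4 in NoBAL, so replicate 1 lay above and replicate 2 below every Control library. MT1A, a metallothionein that binds zinc, was at 1711, 1975 and 1711 FPKM in Control and 1844 and 51.8 in NoBAL. RAB20, a Rab of endosomes, was at 6.77, 6.45 and 6.57 FPKM in Control and 29.8 and 2.92 in NoBAL, while RAB30, a Rab of the Golgi, was at 13.2, 13.3 and 13.5 FPKM in Control and 6.89 and 55.4 in NoBAL, highest in replicate 2. None of these 4 was called (adjusted p = 0.7, 0.18, 0.59 and 0.53), and they were chosen after their values were seen. The summed neutrophil markers also differed between the NoBAL libraries, 238 FPKM in replicate 1 and 27.8 FPKM in replicate 2.

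Livers supported by an empty device on day 3 were the nearest other failure group. In the same model 4146 genes (34% of those tested) differed between NoBAL and EmptyBAL, in a comparison that shares the NoBAL libraries with the one above. EmptyBAL values of GCGR were 40.995 and 11.4 FPKM, those of RPS6KA2 4.15 and 1.07 FPKM and those of SLC51A 0.0930 and 24.4 FPKM.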

How the data were processed

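The authors deposited 1 table of FPKM for 31905 pig genes in 10 libraries. Per the labels' protocols, total RNA was extracted (Trizol) and read in pairs from TruSeq libraries. Tools named in the submitters' processing notes are HISAT2, Cufflinks and HTSeq. The notes give Sscrofa11.1 and mm10 as builds, and no roles. The unit FPKM was inferred from the deposited values. Depth is unknown, so no counting intervals are given, and a value of 0 may be a failed estimate.

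The 12180 genes that reached 1 FPKM in 2 or more libraries were tested as log2(FPKM + 1) with limma 3.58.1 in R 4.3.3 (mean-variance trend, 5 groups, 5 residual degrees of freedom, prior 2.7), two-sided, with Benjamini-Hochberg adjustment over all genes and a call at 0.05. The procedure was tested on simulated data. Symbols came from the table for 10358 genes and from a reference for 580. Positions were taken from Sscrofa11.1 by symbol.

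The 43 gene families, defined by patterns of symbols, and all tests were chosen with earlier results of these data known. The pattern for solute carriers was widened after its first result was seen. Named genes are, per family, up to 5 called higher and 5 lower with the largest change, groups not overlapping and 5 FPKM or more on average in the higher group, and the most abundant gene not called. Added to these are the 25 largest rises and 25 falls over all genes with a symbol. Also added are genes with a symbol under 1 FPKM in every library of a group and at least 5 FPKM in every library of the other. The steepest rising and falling genes without a symbol were taken by the same order. The text gives a part of them, and FCN2 and PECAM1, from the marker lists, fall outside the rule. Overlapping genes and near-identical paralogs are uncertain. The strandedness of the kit was not given in the sources used here. Promoter sequences were not used here, and some named genes are not reported here.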

Additional observations from a re-analysis of the deposited data

How the results depend on the processing

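The count of 6021 genes called stayed within 1.5 times under a pseudocount of 0.1, no filter, a filter at 5 FPKM, upper-quartile scaling, equal sums, and with only Control and NoBAL in the model (4586 to 6958). Leaving out 1 library at a time gave 4629 to 5534 genes in all, 2274 to 2803 higher and 2355 to 2731 lower. With Control and the day 8 device libraries averaged to 1 sample each, 419 genes were called, 121 higher and 298 lower, from fewer samples. At equal sums 1936 genes were called lower. Deviations of same-numbered libraries correlated at -0.04 to 0.14. This cannot settle whether replicate numbers pair the samples, since the Control libraries were nearly alike and the labels do not say. The fit with a replicate block called 3010 genes, 1380 higher and 1630 lower. For NoBAL against EmptyBAL the replicate block gave 407 genes, and leaving out 1 library gave 3081 to 6679. None of the 483 named genes that were called changed direction under any of these settings. For most of these genes, groups that did not overlap were a condition of naming. Averaging, leaving out 1 library, or another pseudocount or filter could therefore not reverse them, so the lack of reversals adds no support. The averaged fit lost 326 of the 483 calls, the replicate block 113, equal sums 27, and leaving out 1 library 45 to 62. The unadjusted p was under 0.05 for 6856 genes. Promoter motifs were not searched.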

Other observations

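Several steep changes by the same rule belonged to none of the families above. MIOX, which breaks down inositol and is best known from kidney, was at 103, 113 and 108 FPKM in Control and 1.47 and 0.544 in NoBAL (log2 change -5.80 ± 0.21, adjusted p = 3e-06). ETNK2, an ethanolamine kinase of phospholipid synthesis, was at 291, 292 and 289 FPKM in Control and 11.96 and 2.72 in NoBAL (-5.39 ± 0.46, adjusted p = 9.1e-05). PLA1A, a phospholipase that acts on phosphatidylserine, was at 14.5, 14.5 and 16.05 FPKM in Control and 0.568 and 0.817 in NoBAL (-3.25 ± 0.18, adjusted p = 1.4e-05). These 3 lipid and inositol genes were far lower in both NoBAL libraries than in any Control library. PDSS1, which makes the tail of coenzyme Q, went from 0.503, 0.387 and 0.293 FPKM in Control to 13.2 and 17.1 FPKM in NoBAL (3.53 ± 0.36, adjusted p = 0.0002). UCK2, a uridine and cytidine kinase of the salvage route, went from 0.201, 0.290 and 0.213 to 5.47 and 6.81 FPKM (2.53 ± 0.13, adjusted p = 9.5e-06). With Control counted as 1 sample, MIOX, ETNK2, PLA1A and UCK2 were still called and PDSS1 was not.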
